A study of Mus musculus with 14 samples.

Results

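Microglia and the cells of blood vessels are minor companions of neurons in primary cortical cultures, and the genes described here are those that mark them. The set was given as 36 gene symbols: 17 of microglia, 10 of endothelial cells and 9 of mural cells, the pericytes and smooth muscle cells that wrap vessels. Of these, 35 were found by symbol among the 52459 gene symbols of the deposited table, and Cspg4os was not analysed here. The filter on low counts left 17732 genes for testing, among them 31 of the set: all 17 microglia genes, 6 endothelial genes and 8 mural genes. The endothelial genes Tek, Tie1, Cldn5 and Emcn did not pass it.

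RNA-seq was done on 14 libraries of mouse cortical neurons prepared from E16.5 embryos. The mutant neurons carried a knock-in change at a serine of BRG1, which Smarca4 encodes and which drives chromatin remodelling by the BAF complex: S1382E, a glutamate, in SE and S1382A, an alanine, in SA. Each mutant had wild-type littermates as controls, called here SE-line wild type and SA-line wild type. Whether the mutants were heterozygous or homozygous is not stated in the labels. All cultures, wild-type and basal ones included, received 1 µM tetrodotoxin, a sodium channel blocker, and 100 µM APV, an NMDA receptor blocker, on day 5 in vitro. On day 6, the 7 KCl libraries were depolarised with 50 mM KCl for 1 h, and the other 7 stayed basal. SE, SA and SA-line wild type had 2 libraries per treatment, and SE-line wild type had 1. The KCl and basal libraries that carry the same group and number are treated as one culture, which is a naming choice and not something the labels say. The libraries held 22625916 to 23096206 estimated counts, so depth was nearly equal. No step that removes glia or vessels is named in the labels, which describe the cells as primary cortical neurons, and the summed level of 12 neuron genes (Tubb3, Map2, Rbfox3 and others) was 4407 to 4868 TPM (transcript abundance scaled for length and library total) in the 6 SE-line libraries and 3241 to 5101 TPM in the 8 SA-line libraries. Single neuron genes differed between lines in both directions, with 3 higher and 2 lower of 12 in the SE line at either treatment. By the same test, described below, 48.1% of all genes differed in either direction after KCl and 45.8% at basal. SA-line wild-type culture 1 stood apart in Slc17a7, the vesicular glutamate transporter of cortical excitatory neurons, a gene chosen after its values were seen, at 13.3 TPM after KCl and 13.1 TPM at basal against 138 to 191 TPM in the other SA-line libraries.

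Microglia are the resident macrophages of the brain. They arise from yolk sac precursors, depend on the receptor CSF1R and the transcription factor PU.1, and clear debris and synapses with help from complement proteins such as C1q. Endothelial cells line vessels, respond to VEGF through KDR and FLT1, and are sealed by cadherin and claudin junctions. Mural cells are drawn to vessels by PDGF-B acting on PDGFRB, and those of arterioles contain the contractile proteins of smooth muscle. In bulk RNA, fewer cells of a type and less RNA per cell cannot be told apart, and this holds for every difference below.

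The set differed between the lines and not detectably with KCl or genotype. Microglia genes were present in every library at a low level and were about 3 times lower in the SE line, mural genes were lower by a larger factor, and most endothelial genes were sparse in both lines. Summed over the 17 microglia genes, levels were 93.5 to 124 TPM in the SE-line libraries and 262.9 to 382.7 TPM in the SA-line libraries, without overlap, and the mean of the SA line was 2.90 times that of the SE line. The 10 endothelial genes summed to 3.19 to 5.65 TPM in the SE line and 6.11 to 23.6 TPM in the SA line, and the mean of the SA line was 3.18 times that of the SE line. As a log2 difference the endothelial sum was -1.58 in TPM, -1.95 in CPM and -1.16 without Kdr. The 8 mural genes summed to 37.5 to 59.2 TPM in the SE line and 341 to 1486 TPM in the SA line, and the mean of the SA line was 16.0 times that of the SE line. Line cannot be told apart from litter, culture or preparation here.

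**Figure D1:**
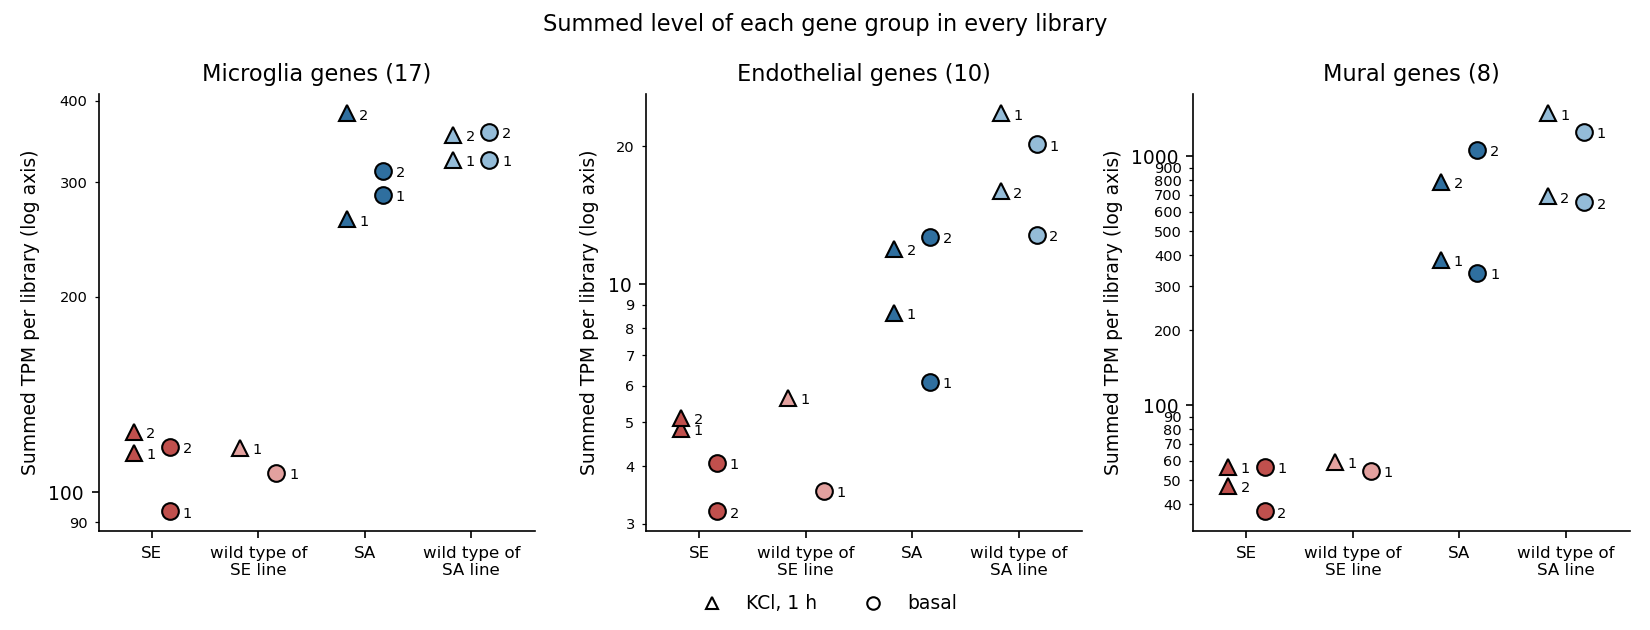
Summed TPM (log axis) of the microglia, endothelial and mural genes in each of the 14 libraries, by group; triangles are KCl libraries, circles are basal libraries and the digits give the culture number. In each panel all 6 SE-line libraries lie below all 8 SA-line libraries, most widely apart for the mural genes (37.5 to 59.2 against 341 to 1486 TPM).

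Differences between lines were tested gene by gene as the mean of mutant and wild type in the SE line over the same mean in the SA line, separately for KCl and basal libraries. The test was edgeR's quasi-likelihood test on estimated counts, adjusted by Benjamini-Hochberg over all 17732 genes, and a gene was called at an adjusted p under 0.05. Log2 differences are given with ± the standard error of the fit, and a negative value means lower in the SE line. After KCl 26 of the 31 members were called lower in the SE line and none higher, and at basal 24 were lower and none higher. Over all genes tested, 25.9% were called lower in the SE line after KCl (48.1% in either direction) and 25.2% at basal (45.8% in either direction). The median log2 difference of all genes was -0.01 after KCl and 0.00 at basal, against -1.48 and -1.42 for the microglia genes and -3.01 and -3.05 for the mural genes. Members with few counts in the SE line, such as Cdh5, P2ry12 and Tmem119, entered the test through the SA line, where they were higher. These counts and medians therefore describe the tested members only. No median is given for the endothelial genes, of which 4 of 10 were dropped by the filter. In counts scaled to library size, every SE-line library lay below every SA-line library for 15 of 17 microglia, 4 of 6 endothelial and 8 of 8 mural genes after KCl, and for 14, 4 and 8 at basal, while this held for 28.2% of all genes after KCl and 27.7% at basal. With wild-type libraries alone, 1 of the SE line against 2 of the SA line per treatment, 20 members were lower after KCl and 20 at basal, all of them among those called above, where 31% of all genes were called in either direction after KCl and 28.6% at basal.

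**Figure D2:**
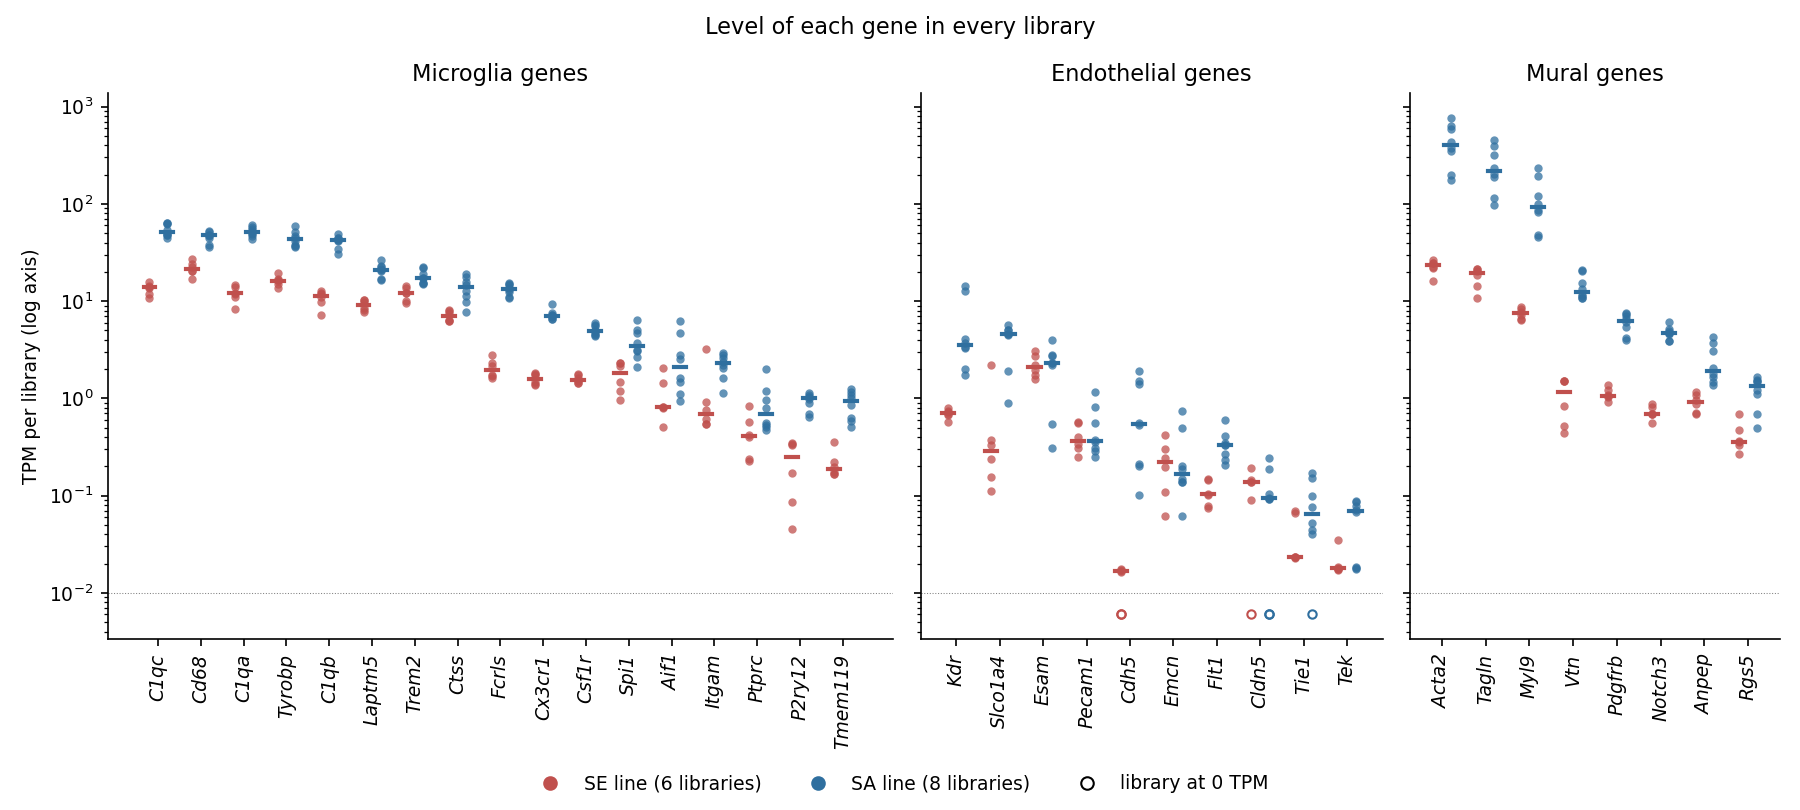
TPM (log axis) of the 35 measured genes in each library, SE-line libraries in red left of SA-line libraries in blue, with bars at the line medians; open circles under the dotted line are libraries listed at 0 TPM. Most microglia and mural genes separate the lines, while Aif1, Itgam, Ctss, Ptprc, Spi1 and Rgs5 overlap, as do the endothelial genes Pecam1, Tek, Tie1, Cldn5, Esam, Slco1a4 and Emcn.

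Of the receptors by which microglia sense their surroundings, Cx3cr1 and P2ry12 were among the microglia genes that differed most. Cx3cr1, the receptor for the neuronal chemokine fractalkine (chromosome 9, 119901616 to 120069879, minus strand, GRCm38), had 1.39 and 1.76 TPM after KCl and 1.41 and 1.72 TPM at basal in SE, and 1.47 TPM after KCl and 1.82 TPM at basal in SE-line wild type. It had 6.56 and 7.50 TPM after KCl and 6.51 and 7.27 TPM at basal in SA, and 6.91 and 6.95 TPM after KCl and 7.20 and 9.36 TPM at basal in SA-line wild type. The lines did not overlap and libraries within a line were close. The highest over the lowest library was 1.27 in the SE line and 1.14 in the SA line after KCl. At basal it was 1.29 in the SE line and 1.44 in the SA line. The log2 difference was -2.05 ± 0.154 after KCl (4.13-fold lower in the SE line, adjusted p = 1.47e-05) and -1.99 ± 0.153 at basal (3.98-fold, adjusted p = 1.59e-05).

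P2ry12, the receptor through which microglia follow ADP from injured cells, was sparse. It had 1 to 6 counts in each SE-line library and 16 to 25 counts in each SA-line library, and its level ranged over 0.0450, 0.250 and 0.350 TPM (lowest, median and highest) in the SE line and 0.649, 1.00 and 1.12 TPM in the SA line. The lines did not overlap, and the log2 difference was -3.0 ± 0.505 after KCl and -2.56 ± 0.494 at basal. P2ry12 reached the filter on low counts through the SA line alone, so no p is given for it. Without the KCl library of SE culture 2 the KCl value was -3.71, and without the basal library of SE-line wild type the basal value was -1.92. Tmem119, a membrane protein widely used to tell microglia from other macrophages, was at 0.168, 0.186 and 0.355 TPM in the SE line and 0.508, 0.937 and 1.25 TPM in the SA line. It was lower by -2.01 ± 0.424 after KCl and -1.78 ± 0.422 at basal on the log2 scale. With 6 to 12 counts in each SE-line library, it too reached the filter through the SA line alone. Csf1r, the receptor for CSF1 and IL34 on which microglia depend for survival, was at 1.44, 1.56 and 1.77 TPM in the SE line and 4.38, 4.92 and 5.96 TPM in the SA line, and it was 2.91-fold lower in the SE line after KCl (adjusted p = 0.000127) and 2.64-fold lower at basal (adjusted p = 0.000194).

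The 3 chains of C1q, the complement protein that tags synapses and debris, were among the 5 most abundant microglia genes, with Cd68 and Tyrobp. Their genes lie side by side on the minus strand of chromosome 4: C1qb at 136880129 to 136886187, C1qc at 136889804 to 136893065 and C1qa at 136895917 to 136898803. C1qa had 13.9 and 14.7 TPM after KCl and 8.32 and 12.1 TPM at basal in SE, and 11.9 TPM after KCl and 11.04 TPM at basal in SE-line wild type. It had 43.2 and 59.9 TPM after KCl and 46.4 and 49.1 TPM at basal in SA, and 50.3 and 52.9 TPM after KCl and 54.8 and 58.1 TPM at basal in SA-line wild type. Every SE-line library was under the lowest SA-line library by a wide margin. C1qb ranged over 7.16, 11.3 and 12.6 TPM in the SE line and 30.5, 42.1 and 48.7 TPM in the SA line, and C1qc over 10.8, 13.8 and 15.9 TPM in the SE line and 44.8, 51.3 and 63.4 TPM in the SA line. The log2 differences of C1qa, C1qb and C1qc were -1.84 ± 0.164, -1.71 ± 0.222 and -1.78 ± 0.184 after KCl, and -2.09 ± 0.167, -1.87 ± 0.225 and -1.93 ± 0.187 at basal.

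Surface receptors and their signalling partners differed by unequal amounts. Itgam, the CD11b integrin subunit used to isolate microglia, was 2.69-fold lower in the SE line after KCl (adjusted p = 0.00161) and 3.03-fold lower at basal (adjusted p = 0.000966). Its TPM overlapped after KCl but not at basal. Over both treatments it was at 0.542, 0.691 and 3.24 TPM in the SE line and 1.14, 2.29 and 2.93 TPM in the SA line. The highest SE-line value, in SE culture 1 after KCl, came mainly from a short processed transcript of 338 bases with 5.24 estimated counts, and was 0.816 TPM without that transcript. Fcrls, an Fc receptor-like protein of mouse microglia, was at 1.63, 1.95 and 2.78 TPM in the SE line and 10.7, 13.3 and 15.5 TPM in the SA line, and its log2 difference was -2.53 ± 0.202 after KCl and -2.59 ± 0.203 at basal, the largest of the 17 at basal. Tyrobp, the adaptor that carries the signal of TREM2, was at 13.5, 16.1 and 19.3 TPM in the SE line and 35.8, 43.0 and 58.8 TPM in the SA line (2.79-fold lower in the SE line after KCl and 2.04-fold at basal). Trem2, the lipid-sensing receptor that pairs with it, was at 9.45, 12.1 and 14.1 TPM in the SE line and 14.9, 17.1 and 22.3 TPM in the SA line. These values did not overlap either, but its log2 differences of -0.40 ± 0.204 after KCl and -0.49 ± 0.206 at basal did not pass (adjusted p = 0.133 and 0.0796). Whether the adaptor differed more than the receptor was not tested.

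The remaining microglia genes encode a transcription factor, lysosomal proteins and 2 general leukocyte proteins. Spi1, which encodes PU.1, the factor that sets the macrophage fate, was at 0.953, 1.81 and 2.30 TPM in the SE line and 2.08, 3.43 and 6.39 TPM in the SA line, which overlapped. Its log2 difference was -1.21 ± 0.341 after KCl (adjusted p = 0.0154) and -1.21 ± 0.344 at basal (adjusted p = 0.0167), but either call was lost when single libraries were left out. At basal this held without the basal library of SA culture 2 (-1.04) or SE culture 1 (-1.11). After KCl it held without the KCl library of SA culture 2 (-0.96), SE culture 1 (-1.05) or SE-line wild type (-0.94). Cd68, a lysosomal glycoprotein of phagocytes, was at 16.9, 21.6 and 27.2 TPM in the SE line and 36.2, 47.6 and 52.6 TPM in the SA line (1.68-fold lower in the SE line after KCl and 1.96-fold at basal). Laptm5, a lysosomal membrane protein of blood-lineage cells, was 1.88-fold lower after KCl and 1.92-fold lower at basal. Ctss, the protease cathepsin S, passed after KCl (-0.83 ± 0.286, adjusted p = 0.0371) but not at basal (-0.73 ± 0.287, adjusted p = 0.0617). Its KCl call was lost without the KCl library of SA culture 2 (-0.45) or of SA-line wild-type culture 1 (-0.725). It was also lost without any single SE library of either treatment. Ptprc, the leukocyte phosphatase CD45, was at 0.227, 0.410 and 0.826 TPM in the SE line and 0.475, 0.682 and 1.98 TPM in the SA line, and Aif1, which encodes the actin-binding protein IBA1, was at 0.513, 0.816 and 2.06 TPM in the SE line and 0.935, 2.08 and 6.22 TPM in the SA line. Both overlapped between lines, and neither passed after KCl (adjusted p = 0.0716 for Ptprc and 0.194 for Aif1) or at basal (adjusted p = 0.0797 and 0.0935).

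**Figure D3:**
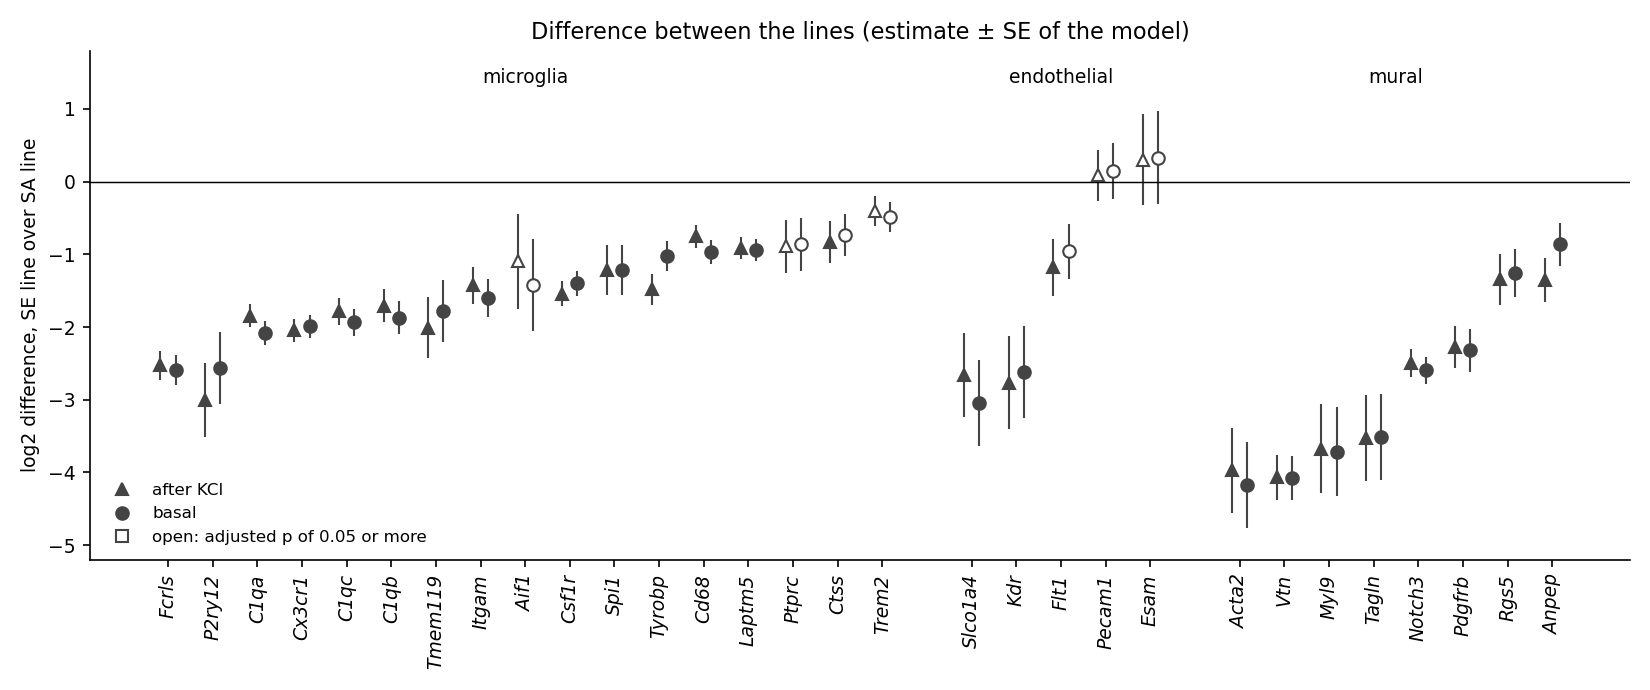
Log2 difference of the SE line over the SA line with its standard error for the 30 tested genes other than Cdh5; triangles are KCl, circles are basal, and open symbols are differences with an adjusted p of 0.05 or more. P2ry12 and Tmem119 reached the filter on low counts through the SA line alone, so their filled symbols are not to be read as a test result. All microglia and mural genes lie below 0, from Trem2 (-0.40 after KCl and -0.49 at basal) to Vtn after KCl (-4.07) and Acta2 at basal (-4.17), and only Pecam1 and Esam lie above it.

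Promoters of the genes were searched for the motif of PU.1, the factor that Spi1 encodes. The bases before the start were taken from the RefSeq promoter table (GRCm38.p6), which held 25 of the members, and the 250 bases before each start were searched on both strands for GAGGAAG, a form of the PU.1 recognition sequence. It was found in 5 of 12 microglia genes (Fcrls, Laptm5, C1qc, Itgam and Trem2), 2 of 7 endothelial genes (Tie1 and Flt1), none of 6 mural genes and 10.6% of all 32851 promoters. A member counted if any of its promoters matched, whereas the 10.6% is by promoter, so these shares are in unlike units. The 3 below were chosen after their values were seen, as genes of a complement chain, an integrin and a receptor that differed by different amounts between lines. Capitals mark the motif or its reverse complement CTTCCTC, and each is shown 5′ to 3′ on the strand of its gene, upstream of the annotated gene start: C1qc at chr4:136893066-136893164 (minus strand), Itgam at chr7:128062390-128062639 (plus strand) and Trem2 at chr17:48346151-48346400 (plus strand).
C1qc: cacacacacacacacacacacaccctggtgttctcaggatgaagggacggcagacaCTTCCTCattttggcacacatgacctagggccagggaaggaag
Itgam: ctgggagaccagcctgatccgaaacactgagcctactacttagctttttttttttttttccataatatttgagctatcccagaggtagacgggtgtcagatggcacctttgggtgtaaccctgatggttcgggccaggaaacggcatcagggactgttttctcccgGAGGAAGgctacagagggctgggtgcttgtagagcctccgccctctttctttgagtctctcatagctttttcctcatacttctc
Trem2: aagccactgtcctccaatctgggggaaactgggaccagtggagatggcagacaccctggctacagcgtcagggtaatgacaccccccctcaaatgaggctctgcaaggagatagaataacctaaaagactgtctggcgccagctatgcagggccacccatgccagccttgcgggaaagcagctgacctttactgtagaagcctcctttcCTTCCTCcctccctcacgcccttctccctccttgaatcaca
The motif ended 188 bases before the RefSeq start in C1qc, 78 in Itgam and 35 in Trem2. Of the microglia genes with a match, Fcrls, Laptm5, C1qc and Itgam differed between lines at both treatments, and Trem2 did not pass. A match of letters is a description and not a site.

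Several endothelial genes were near 0 in all libraries and others were not. Tek (the TIE2 receptor of angiopoietins), Tie1, Cldn5 (the main claudin of the blood-brain barrier), Emcn (a sialomucin of the vessel surface) and, outside the set, the transcription factors Erg and Sox17 had between 0 and 11 counts in every library and at most 0.744 TPM; these were singled out after their values were seen. Other endothelial genes outside the set, also chosen after their values were seen, were present in both lines, among them Plvap, a protein of vessel fenestrae (7.94 to 10.7 TPM in the SE line and 5.45 to 7.24 TPM in the SA line), and Cd34, a sialomucin (2.90 to 4.56 TPM in the SE line and 3.33 to 4.50 TPM in the SA line). Pecam1, the junction protein CD31, was low in both lines, at 0.248, 0.368 and 0.576 TPM in the SE line and 0.247, 0.363 and 1.15 TPM in the SA line (log2 difference 0.09 ± 0.348 after KCl and 0.15 ± 0.387 at basal, adjusted p = 0.854 and 0.778). Esam, an adhesion molecule of endothelial cells, was at 1.58, 2.08 and 3.05 TPM in the SE line and 0.308, 2.33 and 3.97 TPM in the SA line, and it did not pass either (0.30 ± 0.625 and 0.33 ± 0.638). Its lowest values, 0.308 TPM after KCl and 0.549 TPM at basal, belonged to SA-line wild-type culture 1.

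Cdh5 and Kdr separated the lines and also the SA-line cultures. Cdh5, the cadherin of endothelial junctions, had 1 and 1 counts after KCl and 1 and 0 at basal in SE, and 0 after KCl and 1 at basal in SE-line wild type. It had 12 and 32 counts after KCl and 12 and 6 at basal in SA, and 112 and 79 after KCl and 90 and 30 at basal in SA-line wild type. Summed over libraries, 2 counts in 3 SE-line libraries stood against 235 in 4 SA-line libraries after KCl, so the level per library in the SA line was 80.4 times that of the SE line (95% exact interval 22.0 to 668, counting error only). At basal, 2 counts stood against 138, a ratio of 47.7 (12.9 to 397). Cdh5 reached the filter on low counts through the SA line alone, so its tested difference between lines is not printed. It remains in the counts of called members above, and its tested differences within the SA line are given below.

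Kdr, the main VEGF receptor (chromosome 5, 75932827 to 75978458, minus strand), had 0.798 and 0.748 TPM after KCl and 0.718 and 0.696 TPM at basal in SE, and 0.573 TPM after KCl and 0.682 TPM at basal in SE-line wild type. It had 2.01 and 3.28 TPM after KCl and 1.73 and 3.71 TPM at basal in SA, and 14.3 and 3.35 TPM after KCl and 12.7 and 4.07 TPM at basal in SA-line wild type. Wild-type culture 1 of the SA line stood apart, with 1196 counts after KCl and 1091 at basal against 141 to 315 in the other SA-line libraries and 47 to 63 in the SE-line libraries. After KCl the highest over the lowest library was 1.39 in the SE line and 7.12 in the SA line, and at basal 1.05 in the SE line and 7.32 in the SA line. The log2 difference between lines was -2.76 ± 0.644 after KCl (adjusted p = 0.00621) and -2.62 ± 0.634 at basal (adjusted p = 0.00787). Leaving out SA-line wild-type culture 1 gave -2.09 after KCl and -2.05 at basal.

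Of the other endothelial genes, Slco1a4, an organic anion transporter of brain endothelium, was at 0.112, 0.287 and 2.19 TPM in the SE line and 0.894, 4.55 and 5.61 TPM in the SA line. Its highest SE-line value, in the wild type after KCl, rested on 9.88 estimated counts of a 622-base transcript and was 0.373 TPM without it. The log2 difference was -2.66 ± 0.576 after KCl and -3.05 ± 0.593 at basal. The KCl value was -3.53 without that wild-type library, and the basal value was -3.76 without the basal library of SE culture 1. Flt1, a VEGF receptor that also acts as a decoy, was at 0.0739, 0.103 and 0.147 TPM in the SE line and 0.207, 0.328 and 0.595 TPM in the SA line, on 7 to 30 counts. The lines did not overlap, and the difference passed after KCl (-1.18 ± 0.395, adjusted p = 0.0327) but not at basal (-0.96 ± 0.379, adjusted p = 0.0629). The KCl call was lost with DESeq2 (adjusted p = 0.0897). It was also lost without the KCl library of SA culture 2 (-0.86), SA-line wild-type culture 2 (-0.92) or SE-line wild type (-0.92). The same held without any single SE library.

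The mural genes with the largest differences were Vtn and 3 contractile proteins of smooth muscle. Acta2, smooth muscle actin (chromosome 19, 34241090 to 34255590, minus strand), had 24.5 and 21.7 TPM after KCl and 24.6 and 15.9 TPM at basal in SE, and 26.2 TPM after KCl and 22.4 TPM at basal in SE-line wild type. It had 198 and 432 TPM after KCl and 175 and 592 TPM at basal in SA, and 758 and 371 TPM after KCl and 628 and 349 TPM at basal in SA-line wild type. The lowest SA-line library was well above the highest SE-line library, and the SA line itself spread widely: after KCl the highest over the lowest library was 1.21 in the SE line and 3.82 in the SA line, and at basal 1.54 in the SE line and 3.59 in the SA line. The log2 difference was -3.97 ± 0.584 after KCl (15.6-fold lower in the SE line, adjusted p = 0.000523) and -4.17 ± 0.593 at basal (17.96-fold, adjusted p = 0.000435). Actins have near-identical coding sequences, so part of these counts could have been split between actin genes by the authors' quantification.

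Tagln, the actin-binding protein SM22, was at 10.9, 19.5 and 21.3 TPM in the SE line and 97.8, 217 and 458 TPM in the SA line, and was 11.5-fold lower in the SE line after KCl and 11.4-fold lower at basal. Myl9, the regulatory light chain of smooth muscle myosin, was at 6.35, 7.50 and 8.79 TPM in the SE line and 46.0, 93.2 and 235.1 TPM in the SA line (12.8-fold lower after KCl and 13.1-fold lower at basal). These 3 contractile genes, grouped by their known role after values were seen, summed to 33.2 to 55.7 TPM in the SE line and 319 to 1451 TPM in the SA line. Within the SA line they kept the cultures in one order in both treatments: wild-type culture 1 (1451 TPM after KCl and 1216 TPM at basal), SA culture 2 (764 and 1034 TPM), wild-type culture 2 (660 and 621 TPM) and SA culture 1 (361 and 319 TPM). That order alternates between wild type and mutant.

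The other mural genes were less abundant and varied less among SA-line cultures. Their sum was 3.52 to 4.97 TPM in the SE line and 22.2 to 34.5 TPM in the SA line, and the SA-line mean was 6.81 times that of the SE line, compared with 16.8 times for the contractile genes. Vtn, the adhesion protein vitronectin that brain pericytes secrete (chromosome 11, 78499091 to 78502324, plus strand), had 1.5 and 1.51 TPM after KCl and 0.834 and 1.498 TPM at basal in SE, and 0.436 TPM after KCl and 0.517 TPM at basal in SE-line wild type. It had 11.4 and 10.8 TPM after KCl and 10.9 and 11.3 TPM at basal in SA, and 20.7 and 15.3 TPM after KCl and 20.4 and 13.3 TPM at basal in SA-line wild type. Its lines were far apart, at -4.07 ± 0.306 after KCl (16.8-fold lower in the SE line, adjusted p = 1.45e-05) and -4.07 ± 0.306 at basal (16.8-fold, adjusted p = 1.42e-05). The wild type of the SE line was the lowest group, on 11 counts per library, and without its library the difference was -3.26 after KCl and -3.36 at basal.

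Receptors of mural cells followed. Pdgfrb, the PDGF-B receptor that recruits pericytes to vessels, was at 0.913, 1.07 and 1.36 TPM in the SE line and 4.02, 6.26 and 7.52 TPM in the SA line, with a log2 difference of -2.27 ± 0.293 after KCl and -2.32 ± 0.293 at basal. Notch3, the Notch receptor of mural cells, was at 0.563, 0.693 and 0.881 TPM in the SE line and 3.91, 4.72 and 6.05 TPM in the SA line, and had the lowest p of the set at both treatments (-2.49 ± 0.186, adjusted p = 1.42e-05 after KCl, and -2.59 ± 0.187, adjusted p = 1.21e-05 at basal). Neither gene overlapped between the lines. Rgs5, a regulator of G protein signalling that marks pericytes, was at 0.265, 0.358 and 0.694 TPM in the SE line and 0.496, 1.34 and 1.67 TPM in the SA line (2.54-fold lower in the SE line after KCl and 2.39-fold at basal). Anpep, the aminopeptidase CD13, was at 0.683, 0.918 and 1.17 TPM in the SE line and 1.39, 1.92 and 4.32 TPM in the SA line (-1.35 ± 0.301 after KCl, adjusted p = 0.00498, and -0.86 ± 0.293 at basal, adjusted p = 0.0361). The basal call of Anpep was lost without the basal library of SE culture 1 (-0.92) or 2 (-0.80). The same held for that of SA culture 2 (-0.77) and of SA-line wild-type culture 2 (-0.74). Pericyte genes outside the set were uneven. Kcnj8, Abcc9, Higd1b, Atp13a5 and Des, singled out after their values were seen, had between 0 and 19 counts in every library and at most 0.321 TPM. Cspg4, the proteoglycan NG2 that pericytes share with oligodendrocyte precursors, was also chosen after its values were seen, and was at 1.10 to 2.21 TPM in the SE line and 2.33 to 7.38 TPM in the SA line.

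A CArG box, the sequence bound by serum response factor upstream of smooth muscle genes, was looked for in the same promoter windows. It was found in Myl9, which was 1 of 6 mural genes in the table, in no microglia or endothelial gene, and in 1.47% of all promoters. Members were again counted by gene and the 1.47% by promoter. The stretch is shown because Myl9 is one of the contractile genes that separated the lines most, with the box in capitals, and it lies at chr2:156775214-156775419 on the plus strand (GRCm38.p6).
Myl9: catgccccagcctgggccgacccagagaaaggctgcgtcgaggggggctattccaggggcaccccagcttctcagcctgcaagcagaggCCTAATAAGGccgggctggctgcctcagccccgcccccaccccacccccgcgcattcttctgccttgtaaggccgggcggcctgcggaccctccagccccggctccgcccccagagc
The box lies 161 to 152 bases before the RefSeq start. No match in the other windows says only that these letters are not there.

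Depolarisation did not detectably change the set within 1 h. None of the 31 members was called after KCl in SE, in SA or over the 3 wild-type cultures, where 1.66%, 0.846% and 1.41% of all genes were called. At an unadjusted p under 0.05, 1 member stood out in each: C1qa in SE (0.47 ± 0.201, adjusted p = 0.552), Rgs5 in SA (-0.93 ± 0.403, adjusted p = 0.828) and Pecam1 in wild type (0.99 ± 0.379, adjusted p = 0.512). DESeq2 and limma-voom also called no member. The median log2 change of the 17 microglia genes was 0.28 in SE, 0.15 in SA and 0.06 in wild type, with standard errors of single genes between 0.145 and 0.876, and that of the 8 mural genes was 0.16 in SE, -0.13 in SA and 0.03 in wild type. Cx3cr1 had a log2 change of 0.04 ± 0.190 in SE, 0.10 ± 0.172 in SA and -0.25 ± 0.145 in wild type, and C1qa one of 0.17 ± 0.187 in SA and -0.02 ± 0.157 in wild type. Acta2 was less precise, at 0.17 ± 0.601 in SE, -0.24 ± 0.582 in SA and 0.22 ± 0.479 in wild type, so a modest change of Acta2 would not have been detectable.

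The KCl response of the members did not differ detectably between groups. No member was called in the difference of response between SE and the wild type of its line (0% of all genes), between SA and the wild type of its line (0%) or between the SE line and the SA line (0.107% of all genes), and none had an unadjusted p under 0.05 in these 3 comparisons. The comparisons share libraries with one another and with those of KCl above.

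**Figure D4:**
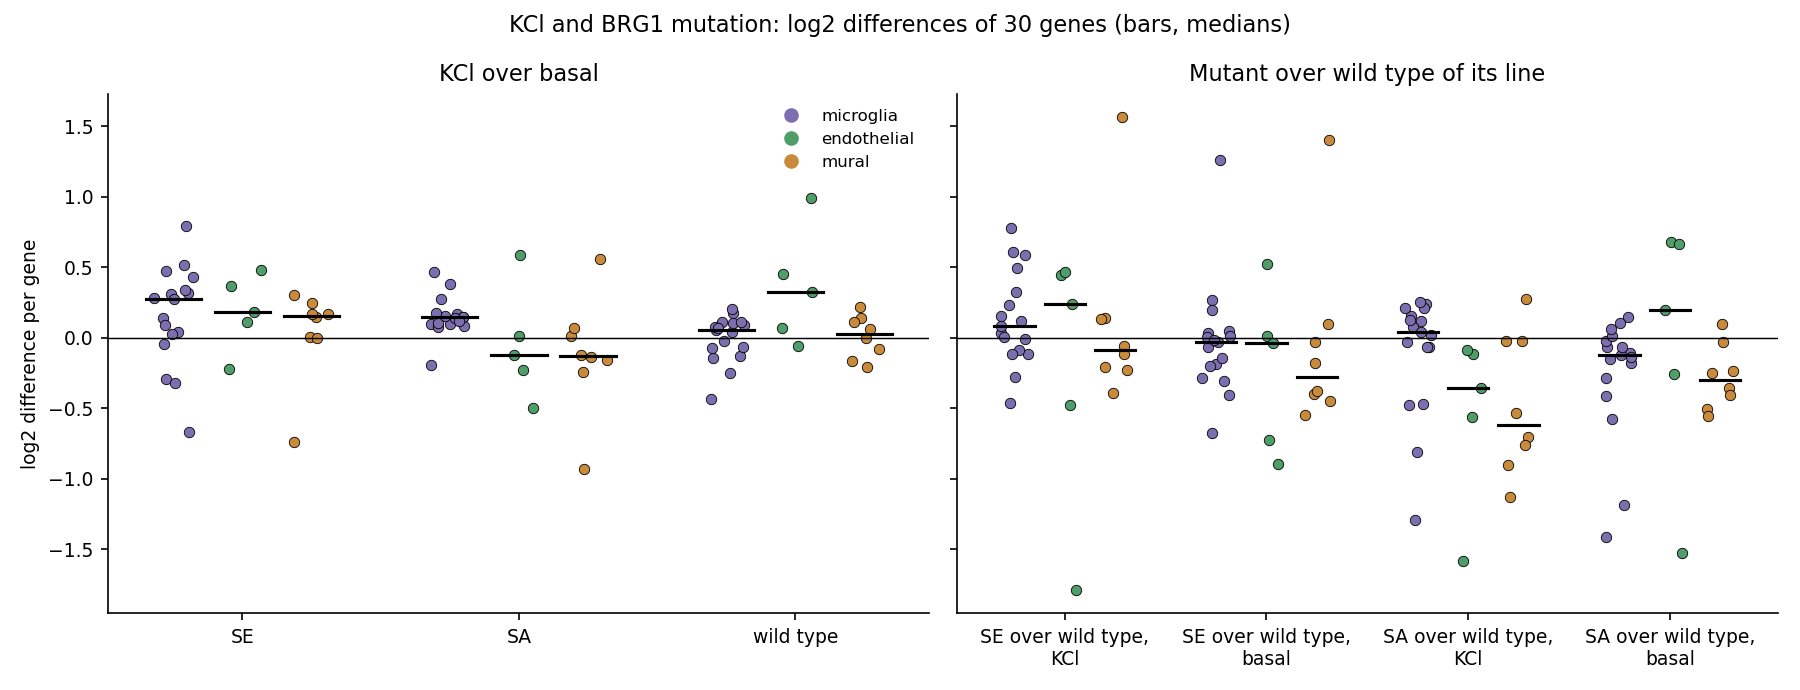
Log2 differences of the 30 tested genes other than Cdh5, by gene group, with bars at the medians: on the left KCl over basal in SE, SA and wild type, on the right each mutant over the wild type of its line after KCl and at basal. Microglia medians were 0.28, 0.15 and 0.06 for KCl. Some gene groups lay mostly to one side of 0, such as 16 of 17 microglia genes above it for KCl in SA. The summed level of these genes rose only in SA culture 2 (312.5 TPM at basal and 382.7 TPM after KCl). In SA culture 1 it was 287.1 TPM at basal and 262.9 TPM after KCl. Mural medians of SA over wild type were -0.62 after KCl and -0.30 at basal. No gene passed the test in any of these comparisons.

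Neither mutant differed detectably from its wild type in any member, and no gene at all was called in these 4 comparisons (0%). SE was set against the wild type of its line with 2 libraries against 1 per treatment. Vtn alone had an unadjusted p under 0.05, at 1.57 ± 0.517 after KCl and 1.40 ± 0.520 at basal (adjusted p = 1 in both). The median of the microglia genes was 0.09 after KCl and -0.03 at basal. Over all genes, 240 had an unadjusted p under 0.05 after KCl and 187 at basal.

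SA was set against the wild type of its line with 2 libraries each. At an unadjusted p under 0.05, Cdh5 (-2.03 ± 0.578, adjusted p = 0.335), Kdr (-1.58 ± 0.690, adjusted p = 0.425) and Rgs5 (-1.13 ± 0.400, adjusted p = 0.386) were lower in SA after KCl, and Cdh5 (-2.62 ± 0.645) and Ptprc (-1.18 ± 0.435) at basal (adjusted p = 0.621 for both). The Kdr value contains wild-type culture 1, whose 14.3 TPM lay far above the 3.35 TPM of wild-type culture 2. The median of the microglia genes was 0.04 after KCl and -0.12 at basal, and that of the mural genes -0.62 after KCl and -0.30 at basal. Over all genes, 2040 had an unadjusted p under 0.05 after KCl and 1279 at basal.

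Further genes of the same cells, listed by known role, were set beside the members for the line comparison. Over all genes tested, 25.9% were called lower in the SE line after KCl and 25.2% at basal. Some listed genes reached the filter on low counts through the SA line alone. Examples are Gpr34, with 1 to 5 counts in each SE-line library and 17 to 51 in each SA-line library, and P2ry13, with 0 to 5 and 4 to 23. The counts and medians below therefore describe the tested genes only. Of 29 further microglia genes tested, 26 were lower in the SE line after KCl and 24 at basal, and none was higher, with a median log2 difference of -1.42 after KCl and -1.47 at basal. Among them, Apoe, a lipid carrier that astrocytes also make, was 3.10-fold lower after KCl and 3.6-fold lower at basal, Sall1, a transcription factor of microglial identity that neural progenitors also express, 2.94-fold and 3.15-fold, and Cyba, a subunit of the phagocyte oxidase, 3.88-fold and 4.06-fold. Siglech, which in mouse brain marks microglia and not border macrophages, had 0 to 5 counts per library. Of 6 tested genes of border macrophages, the macrophages of meninges and vessels, 6 were lower after KCl and 5 at basal: Mrc1, the mannose receptor CD206, was 10.6-fold lower after KCl and 12.5-fold lower at basal, and Stab1, a scavenger receptor, 10.2-fold and 12.8-fold. Mrc1 had 6 to 15 counts in each SE-line library and Pf4 had 2 to 7. Both reached the filter on low counts through the SA line alone, so their direction was largely set by it. The other 4 border macrophage genes listed, Lyve1, Cd163, Cbr2 and F13a1, did not pass the filter and had at most 8, 18, 3 and 8 counts in any library. Microglia and border macrophages share many of the members, and how far each contributed was not tested.

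Further vessel genes were listed likewise, and the share of all genes called in either direction was 48.1% after KCl and 45.8% at basal. Of 18 further endothelial genes tested, 3 were higher and 4 lower in the SE line after KCl, and 3 higher and 6 lower at basal. Abcg2, an efflux transporter of the barrier, was higher in the SE line (0.80 ± 0.117 after KCl and 0.76 ± 0.117 at basal), and Fli1, an ETS factor of endothelial and blood cells, was lower (-1.84 ± 0.316 and -1.73 ± 0.307). Of 16 further mural genes, 1 was higher and 8 lower after KCl, and 1 higher and 9 lower at basal. Lmod1, an actin nucleator of smooth muscle, was 15.4-fold lower after KCl and 24.1-fold lower at basal, and Tbx18 and Foxc1, transcription factors of mural and meningeal cells, were 7.69-fold and 4.24-fold lower after KCl. Tbx18 had 5 to 9 counts in each SE-line library, Foxf2 had 1 to 8 and Heyl had 2 to 7. These genes reached the filter on low counts through the SA line alone, so the mural counts describe the tested genes only.

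Of 16 ligands of the member receptors tested, 4 were higher and 7 lower in the SE line after KCl, and 3 higher and 8 lower at basal, beside the same 48.1% and 45.8% of all genes. Pdgfb, the ligand of PDGFRB, was at 4.55 to 6.94 TPM in the SE line and 14.8 to 23.5 TPM in the SA line, and was 2.71-fold lower in the SE line after KCl and 3.33-fold lower at basal. Angpt1, the activating ligand of TIE2, was 2.68-fold lower at both. The following ligands were chosen after their values were seen. Csf1, a ligand of CSF1R, was at 5.4 to 7.54 TPM in the SE line and 20.5 to 87.4 TPM in the SA line (log2 difference at basal -2.70 ± 0.465, adjusted p = 0.00128), while Il34, the neuronal ligand of the same receptor, was at 3.73 to 7.07 TPM in the SE line and 2.01 to 6.37 TPM in the SA line (0.11 ± 0.332 at basal, adjusted p = 0.812). Cx3cl1, the fractalkine that binds CX3CR1, was higher in the SE line, at 193 to 311 TPM against 50.0 to 173 TPM in the SA line (1.03 ± 0.336 at basal, adjusted p = 0.0309). Vegfa, the ligand of KDR and FLT1, was also higher, at 34.4 to 58.3 TPM in the SE line against 16.0 to 32.7 TPM in the SA line (1.15 ± 0.244 at basal, adjusted p = 0.00392).

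Markers of most other non-neuronal cells listed also differed between the lines. Over all genes tested, 25.2% were called lower in the SE line at basal (45.8% in either direction) and 25.9% after KCl (48.1%). Some of these markers reached the filter on low counts through the SA line alone. Examples are Aldh1a2, with 0 or 1 counts in each SE-line library, and Slc6a13, with 1 to 7. The counts of called genes below therefore describe the tested genes only. Meningeal fibroblast genes summed to 18.9 to 25.9 TPM in the SE line and 126 to 297 TPM in the SA line, with 12 of 12 lower at basal. Astrocyte genes summed to 288 to 359.5 TPM in the SE line and 1061 to 1766 TPM in the SA line, with 9 of 10 lower at basal, and oligodendrocyte lineage genes to 81.4 to 97.1 TPM in the SE line and 435 to 582 TPM in the SA line, with 9 of 10 lower. Neural progenitor genes summed to 417 to 520.1 TPM in the SE line and 2112 to 4654 TPM in the SA line, with 8 of 10 lower and 1 higher. Blood cell genes went the other way, at 19.6 to 26.7 TPM in the SE line and 8.47 to 11.7 TPM in the SA line, with 3 of 3 tested, all globins, higher. Choroid plexus and ependyma genes overlapped between lines, at 20.6 to 788 TPM in the SE line and 311 to 1510 TPM in the SA line, with 4 of 8 lower after KCl and 6 of 8 at basal. The part of these other cell types in the values of genes that they share with the members, such as Acta2 or Pdgfrb in meningeal cells, was not tested.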

How the data were processed

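The authors quantified transcripts with kallisto 0.43.1; GRCm38 and mm10 are the builds named in the submitters' processing notes. The deposited values are estimated counts and TPM, per transcript (131100) and per gene symbol, and 65.6% of nonzero gene counts were not whole. Strand-specific counting is not stated, so overlapping genes may share reads. Counts were rounded and fitted with edgeR 4.0.16 (R 4.3.3): filterByExpr on 6 combinations of genotype and treatment, TMM factors of 0.919 to 1.10, 8 group means, 14 libraries and 6 residual degrees of freedom, which pools the spread for the single wild-type libraries of the SE line. P-values measure the spread between these libraries, since separate animals are not stated. Coordinates come from GENCODE M21. Members and lists were chosen with earlier results of these data known. Values were to be given for the called members and the 6 most abundant of each group, and for up to 3 called genes with the lowest p of each other list. Alternatives were DESeq2 1.42.0, limma 3.58.1, scaling, filters, log2(TPM + 0.5), a culture block, left-out libraries and, added after seeing the data, protein-coding transcripts only. The model was tested on simulated data.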

Additional observations from a re-analysis of the deposited data

How the results depend on the processing

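The number of members called lower in the SE line ranged from 20 to 26 over the alternatives at both treatments, and stayed 0 in every KCl, genotype and response comparison. Of 1150 alternatives for 50 gene results, none reversed and 42 lost the call, in 12 results. These were mainly Flt1 and Ctss after KCl, Anpep at basal and Spi1. Itgam after KCl was -0.71 (adjusted p = 0.182) on log2 TPM. The replicate number does not pair libraries in all groups (correlation of deviations 0.58 in SA, 0.794 in SA-line wild type and -0.07 in SE). With culture as a replicate block, members called after KCl stayed at 0, while calls over all genes were 1024 in SE, 613 in SA and 829 in wild type, against 295, 150 and 250. SA against wild type after KCl gave 126 calls over all genes with DESeq2, none a member. Across all settings, calls over all genes spanned 114 to 1024, 68 to 613 and 30 to 829 for KCl in SE, SA and wild type, 12 to 133 for the line difference in response, and 5067 to 8597 between lines at basal. The log2 line difference of the summed microglia genes was -1.53 in TPM, -1.39 in CPM and -1.46 without C1qc. Counts of under 10 per library limit P2ry12 and Cdh5.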
